A study of Mus musculus with 4 samples.

Results

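The genes described here were 30 genes of cholesterol and fatty acid synthesis that are controlled by the sterol regulatory element-binding proteins (SREBPs). They were chosen by name, and all 30 were among the 25239 gene symbols counted in the series. RNA-Seq had been run on CD4+ T cells taken from tumors in the lungs of male mice on the C57BL/6 background, and the labels gave 2 libraries as WT and 2 as CD4/ALK4-KO. CD4/ALK4-KO mice carry CD4CreERT2+/- and Acvr1bfl/fl, so that tamoxifen induces Cre under the *Cd4* promoter and deletes *Acvr1b*, the gene of the activin type I receptor ALK4, in cells that express *Cd4*. Wild-type littermates carried an intact receptor, and it was not stated whether they received tamoxifen. Young adult mice of both genotypes received LLC-OVA cells, the Lewis lung carcinoma line made to express ovalbumin, by the intravenous route. The labels place the removal of the tumors 18 to 22 days later, and the study's methods give a slightly earlier window for this model. The cells came from the leukocyte layer of a Percoll gradient and were isolated with a commercial kit. It was not stated whether a library held 1 animal or a pool, so p-values measure the spread between these 4 libraries only.

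Cells make cholesterol from acetyl-CoA through mevalonate, squalene and lanosterol, and fatty acids by carboxylation, elongation and desaturation of the same precursor. When sterols are plentiful, INSIG proteins hold the SREBP escort SCAP in the endoplasmic reticulum. When sterols fall, SCAP carries the SREBP precursors to the Golgi, where proteases release a fragment that enters the nucleus and activates the genes of synthesis. SREBP-2 acts mainly on cholesterol genes and SREBP-1 mainly on fatty acid genes, and T cells are known to raise these programs when they are activated and divide.

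The total counts ranged from 11823908 to 13943237 per library. *Acvr1b*, the targeted gene, had 426 and 342 counts in WT and 322 and 445 counts in CD4/ALK4-KO. These are counts over the whole gene, undeleted exons included. They did not separate the genotypes, and every direction given here therefore rests on the labels of the libraries. Of 16 T cell markers, 15 were analysed and all 15 were called higher in CD4/ALK4-KO by the test given below, against 17.4% of all genes tested. The median of their log2 fold changes (log2FC) was 2.43. Their summed level was 508.5 to 553 CPM (counts per 1000000 counts) in WT and 2754 to 3007 CPM in CD4/ALK4-KO. The 12 markers of macrophages and monocytes summed to 7065 to 8143 CPM in WT and 7070 to 7486 CPM in CD4/ALK4-KO. Most of each sum was *Lyz2*, with a mean of 4982 CPM in WT and 4493 CPM in CD4/ALK4-KO. Of the 12, 2 were called higher (*Csf1r* and *Ccr2*, 16.7%, against 17.4% of all genes tested) and none lower, with a median log2FC of -0.15. In bulk RNA fewer cells of a type and less RNA per cell cannot be told apart. A pair of scales was used for this reason. The TMM scale of edgeR assumes that most genes do not change. The T cell receptor scale divides by *Cd3d*, *Cd3e*, *Cd3g* and *Cd247* of the receptor complex and *Lck*, *Zap70* and *Lat* of its proximal signalling. These 7 are called the T cell receptor complex genes here, and this scale shifted the log2FC of all genes by a median of -2.39.

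Promoter sequence was examined for the letters of 4 motifs on both strands, in windows of 250 bases before to 50 bases after each RefSeq start (GRCm38.p6). Of the 30 genes, 24 had a window in the table, with 32 windows in all. The sterol regulatory element core TCACNCCAC was found in 1 of the 32, that of *Hmgcs1*, against 1.24% of all 32851 windows. CCAAT, the box bound by the SREBP partner NF-Y, was found in 20 of the 32 (62.5%) against 37.4% of all windows. GGGCGG, bound by Sp1, was found in 23 (71.9%) against 35.7%, and the E-box CACGTG in 6 (18.8%) against 7.15%. These shares describe the letters only, and no binding was measured in these libraries at these genes.

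Below are the 250 bases before the start of *Hmgcs1*, which holds the sterol regulatory element match, of *Acly* and *Lpin1*, which rose, and of *Acat2*, which fell most. The last 3 were chosen after their values were seen. Each is read 5′ to 3′ along the gene, and capitals mark a match to any of the 4 motifs or its reverse complement.
Hmgcs1 (chr13:119690101-119690350, plus strand): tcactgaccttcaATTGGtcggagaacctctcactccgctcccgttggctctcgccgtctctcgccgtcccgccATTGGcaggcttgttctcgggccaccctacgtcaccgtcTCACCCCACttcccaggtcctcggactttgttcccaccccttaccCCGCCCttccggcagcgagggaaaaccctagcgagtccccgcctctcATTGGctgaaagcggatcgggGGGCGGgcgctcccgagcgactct
Acly (chr11:100528001-100528250, minus strand): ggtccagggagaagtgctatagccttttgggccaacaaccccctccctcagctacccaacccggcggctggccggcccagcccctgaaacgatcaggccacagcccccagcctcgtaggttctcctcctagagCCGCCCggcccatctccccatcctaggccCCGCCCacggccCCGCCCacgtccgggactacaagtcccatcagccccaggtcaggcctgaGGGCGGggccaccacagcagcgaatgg
Lpin1 (chr12:16610967-16611216, minus strand): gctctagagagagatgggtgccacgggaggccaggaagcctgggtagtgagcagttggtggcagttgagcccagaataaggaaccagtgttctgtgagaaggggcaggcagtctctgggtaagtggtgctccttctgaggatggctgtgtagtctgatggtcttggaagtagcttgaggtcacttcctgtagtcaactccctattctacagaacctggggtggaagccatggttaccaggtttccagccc
Acat2 (chr17:12960726-12960975, minus strand): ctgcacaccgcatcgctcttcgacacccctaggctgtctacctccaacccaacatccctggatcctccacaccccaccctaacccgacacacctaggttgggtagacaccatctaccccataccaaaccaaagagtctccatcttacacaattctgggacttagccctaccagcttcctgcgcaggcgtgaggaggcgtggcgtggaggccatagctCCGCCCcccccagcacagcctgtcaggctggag

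The *Hmgcs1* window held its sterol regulatory element core starting 137 bases upstream of the start, with reverse CCAAT boxes starting 237, 176 and 45 bases upstream and Sp1 matches starting 92 and 24 bases upstream. The *Acly* window held 4 Sp1 matches upstream of the start and no sterol regulatory element core. The *Lpin1* window held none of the 4 motifs, and that of *Acat2* held 1 Sp1 match. No gene body overlapped the windows of *Hmgcs1*, *Acly* and *Lpin1* in GENCODE M21, and 22 bases of the *Acat2* window lay in an annotated exon of *Acat2*.

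All 30 genes were expressed and were among the 13919 genes that passed the expression filter. On the TMM scale, edgeR's quasi-likelihood test with Benjamini-Hochberg adjustment called 3 of the 30 higher (10%) and 6 lower (20%) in CD4/ALK4-KO at the 0.05 threshold, against 17.4% of all genes tested for higher and 15.4% for lower. *Acss2*, *Lpin1* and *Acly* rose, and *Acat2*, *Sqle*, *Elovl6*, *Insig2*, *Scap* and *Fdft1* fell. These shares were of the order of the background and are not a result about the list as a whole. The median log2FC of the 30 genes was -0.29, beside -0.0082 for all genes tested. In 17 of the 30 genes the CPM of the genotypes did not overlap, with 13 below and 4 above WT in CD4/ALK4-KO, while 66.7% of all genes tested showed no overlap. On the T cell receptor scale all 30 were lower, as were 93.6% of all genes tested, and the 3 genes that rose on the TMM scale were below 0 there. The number of genes called lower depended on single libraries, among the 30 genes and also over all genes tested. In both sets it fell when a WT library was dropped and rose when a CD4/ALK4-KO library was dropped. This dependence is therefore not particular to the 30 genes. Dropping WT replicate 1 moved the median log2FC of the 30 genes to -0.19, and dropping WT replicate 2 moved it to -0.42. The medians were -0.29 and -0.19 after replicate 1 or 2 of CD4/ALK4-KO was dropped.

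**Figure D1:**
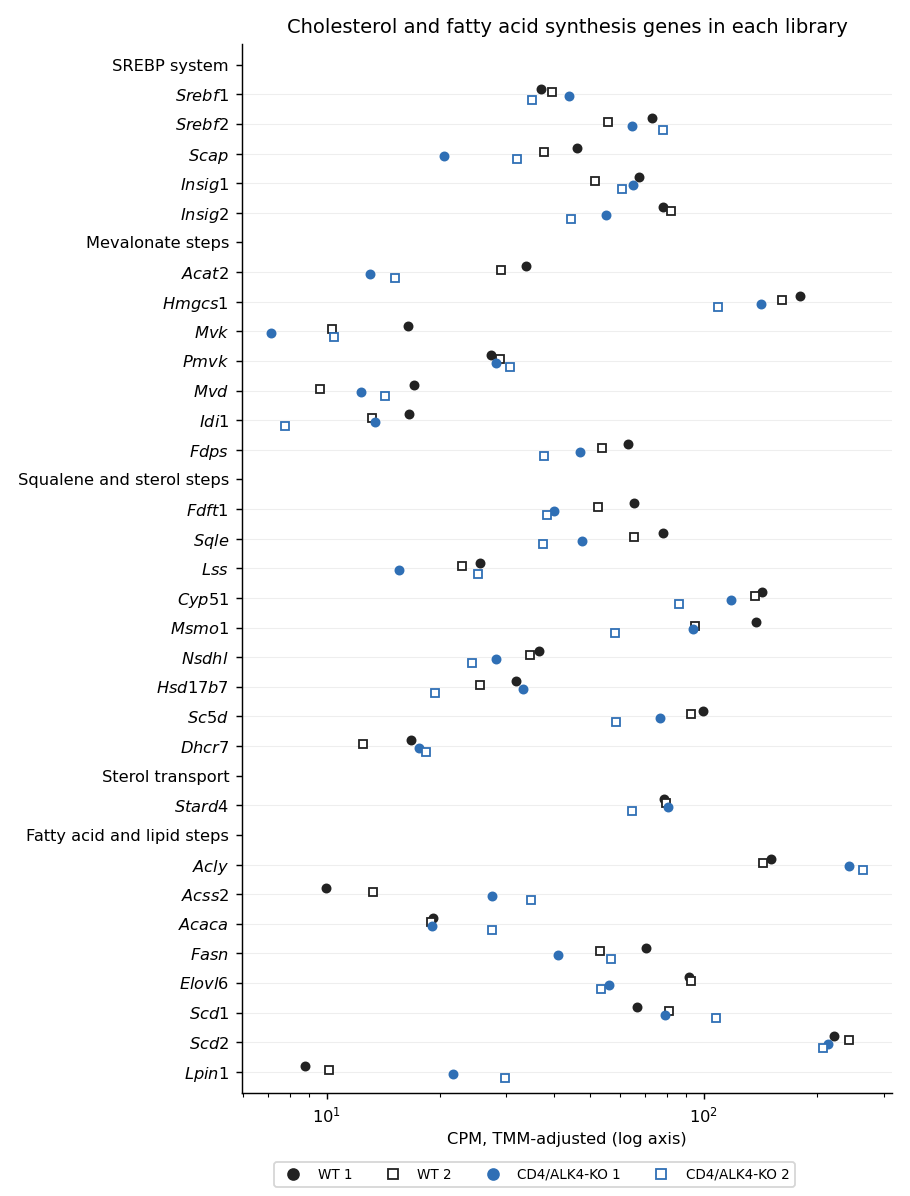
Each point is the CPM of a gene in 1 library (log axis), with the 30 genes grouped by their step in the pathway, WT in black and CD4/ALK4-KO in blue, filled circles for replicate 1 and open squares for replicate 2. *Acly*, *Acss2* and *Lpin1* lie apart to the right in CD4/ALK4-KO on this TMM scale, and *Acat2*, *Sqle* and *Elovl6* lie apart to the left, whereas on the T cell receptor scale all 30 genes were lower.

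Of the 5 genes of the SREBP system itself, *Scap* and *Insig2* fell (40%, against 15.4% of all genes tested), and *Srebf1*, *Srebf2* and *Insig1* did not pass the threshold. *Srebf2*, which encodes SREBP-2, had 73.0 and 55.6 CPM in WT and 64.6 and 78.0 CPM in CD4/ALK4-KO. *Srebf1*, which encodes SREBP-1, had 37.1 and 39.7 CPM in WT and 43.9 and 35.2 CPM in CD4/ALK4-KO. For both genes the libraries of the genotypes overlapped. The log2FC was 0.15 for *Srebf2* (standard error, SE, 0.22, adjusted p = 0.65) and 0.04 for *Srebf1* (SE 0.22, adjusted p = 0.91), and an interval of 2 SE ran from -0.30 to 0.59 and from -0.41 to 0.49. Differences within these intervals were not detectable with 2 libraries per genotype.

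*Scap* (chr9:110333288-110384950, plus strand, GRCm38), the gene of the escort protein, had 46.2 and 37.7 CPM in WT and 20.5 and 32.0 CPM in CD4/ALK4-KO. Both libraries labelled CD4/ALK4-KO were below both labelled WT, but they also lay far from each other. Its log2FC of -0.68 (SE 0.25, adjusted p = 0.041) was -0.36 when replicate 1 of CD4/ALK4-KO was left out and -1.03 when its replicate 2 was left out. The threshold was also missed without either WT library and with the Wald test of DESeq2. In addition, 13.2% of its exon bases lie in exons of another annotated gene, where reads cannot be assigned by strand with this unstranded kit.

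*Insig1* and *Insig2* encode the proteins that retain SCAP, and *Insig1* is itself a classical SREBP target. *Insig2* (chr1:121304353-121332589, minus strand) had 78.0 and 81.8 CPM in WT and 55.2 and 44.4 CPM in CD4/ALK4-KO, and its log2FC was -0.68 (SE 0.22, adjusted p = 0.019). *Insig1* had 67.2 and 51.5 CPM in WT and 64.9 and 60.7 CPM in CD4/ALK4-KO, with overlapping libraries and a log2FC of 0.08 (SE 0.22, adjusted p = 0.81). The relation of these paralogs within a library does not depend on the scale. There were 0.862 and 0.629 counts of *Insig1* for each count of *Insig2* in WT, and 1.18 and 1.37 in CD4/ALK4-KO, so that *Insig2* had more counts than *Insig1* in both WT libraries and fewer in both CD4/ALK4-KO libraries. Per kilobase of exon the order in each library was the same. *Insig2* was not called without either WT library. No test was applied to this ratio, since 2 libraries against 2 cannot give an exact permutation p below 0.333, two-sided. The ratio of *Srebf1* to *Srebf2* counts was 0.509 and 0.714 in WT and 0.680 and 0.451 in CD4/ALK4-KO, and here the genotypes overlapped.

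The steps from acetyl-CoA to farnesyl diphosphate were represented by 7 genes, of which 1 fell, none rose and 6 did not pass the threshold. The share lower was 14.3%, against 15.4% of all genes tested. *Acat2* (chr17:12942890-12960747, minus strand), the cytosolic thiolase that joins acetyl-CoA units at the start of the pathway, had 33.7 and 29.0 CPM in WT and 13.02 and 15.2 CPM in CD4/ALK4-KO. It had the lowest log2FC of the 30 genes, -1.15 (SE 0.26, adjusted p = 0.0017), or 0.451 times the WT level. *Acat2* was called lower without each library in turn except WT replicate 1, where the value was -1.04. *Hmgcs1*, the HMG-CoA synthase gene whose promoter is shown above, had the highest level of these steps per kilobase of exon. It had 180 and 162 CPM in WT and 141 and 109 CPM in CD4/ALK4-KO. The libraries did not overlap, but the log2FC of -0.45 (SE 0.22, adjusted p = 0.12) did not pass the threshold. *Fdps*, the farnesyl diphosphate synthase gene, was similar at 62.9 and 53.9 CPM in WT and 47.0 and 37.7 CPM in CD4/ALK4-KO, with a log2FC of -0.46 (SE 0.22, adjusted p = 0.12). Exons of another gene cover 26.7% of its exon bases, so that its counts are uncertain.

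The other 4 genes of these steps did not pass the threshold. The mevalonate kinase gene *Mvk* had 16.4 and 10.3 CPM in WT and 7.14 and 10.4 CPM in CD4/ALK4-KO (log2FC -0.60, adjusted p = 0.15). The isomerase gene *Idi1* had 16.6 and 13.2 CPM in WT and 13.4 and 7.78 CPM in CD4/ALK4-KO (log2FC -0.49, adjusted p = 0.23). The genotypes overlapped in both. The phosphomevalonate kinase gene *Pmvk* (log2FC 0.07) and the decarboxylase gene *Mvd* (-0.0044) had nearly the same mean in both genotypes, and *Pmvk* ranged from 27.3 to 30.6 CPM over the 4 libraries.

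The squalene and sterol steps were represented by 9 genes, of which 2 fell (22.2%, against 15.4% of all genes tested), none rose and 7 did not pass the threshold. *Sqle* (chr15:59315077-59331192, plus strand), the squalene epoxidase gene and a rate-limiting step after mevalonate, had 78.0 and 65.2 CPM in WT and 47.6 and 37.5 CPM in CD4/ALK4-KO. Its log2FC was -0.75 (SE 0.22, adjusted p = 0.013), or 0.594 times the WT level. *Fdft1* (chr14:63145150-63179578, minus strand), the squalene synthase gene, had 65.2 and 52.3 CPM in WT and 40.0 and 38.5 CPM in CD4/ALK4-KO, and its log2FC was -0.58 (SE 0.22, adjusted p = 0.046). Neither gene overlapped between the genotypes. *Fdft1* lies close to the threshold and missed it with DESeq2 and without either WT library, and *Sqle* missed it without either WT library. Exons of *Ctsb* cover 18.3% of the exon bases of *Fdft1*.

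Of the other 7 genes, 4 were below both WT libraries in both CD4/ALK4-KO libraries without passing the threshold. Over all genes tested, 66.7% showed no overlap in 1 direction or the other, so this count is not a result about these genes. *Cyp51*, the lanosterol demethylase gene, had 143 and 137 CPM in WT and 118 and 85.9 CPM in CD4/ALK4-KO (log2FC -0.45, adjusted p = 0.12). *Msmo1*, a methylsterol oxidase gene, had 137 and 94.6 CPM in WT and 93.8 and 58.2 CPM in CD4/ALK4-KO (-0.61, adjusted p = 0.059). For *Msmo1* the lower WT library and the higher CD4/ALK4-KO library were almost at the same level. *Sc5d*, the lathosterol oxidase gene, had 99.5 and 92.6 CPM in WT and 76.4 and 58.5 CPM in CD4/ALK4-KO (-0.51, adjusted p = 0.076), and the dehydrogenase gene *Nsdhl* had 36.6 and 34.6 CPM against 28.1 and 24.3 CPM (-0.44, adjusted p = 0.16). The lanosterol synthase gene *Lss* and the reductase gene *Hsd17b7* overlapped between the genotypes, with log2FC of -0.24 and -0.13. The exception in direction was *Dhcr7*, the last reductase of the pathway, with 16.7 and 12.5 CPM in WT and 17.6 and 18.3 CPM in CD4/ALK4-KO. Both CD4/ALK4-KO libraries were above both WT libraries, but its log2FC of 0.30 (SE 0.27, adjusted p = 0.43) did not pass the threshold. *Stard4*, a carrier of sterols between membranes, overlapped between the genotypes, with a log2FC of -0.12 (SE 0.22, adjusted p = 0.71).

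Over the 16 genes from *Acat2* to *Dhcr7*, 14 had a log2FC below 0 on the TMM scale, beside 7012 of all 13919 genes tested. The median of the 16 was -0.46, beside -0.0082 for all genes tested. The median was -0.59 when replicate 1 of CD4/ALK4-KO was left out and -0.31 when its replicate 2 was left out. Their summed level was 988 and 844 CPM in WT and 733 and 591 CPM in CD4/ALK4-KO, without overlap between the genotypes. The 16 genes also differed between libraries of the same genotype. WT replicate 1 was above WT replicate 2 in 15 of the 16 genes, and CD4/ALK4-KO replicate 2 was the lowest of the 4 libraries in 10 of them. Only 3 of the 16 passed the test (18.8%, against 15.4% of all genes), all 3 of them lower, and 13 were not called.

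**Figure D2:**
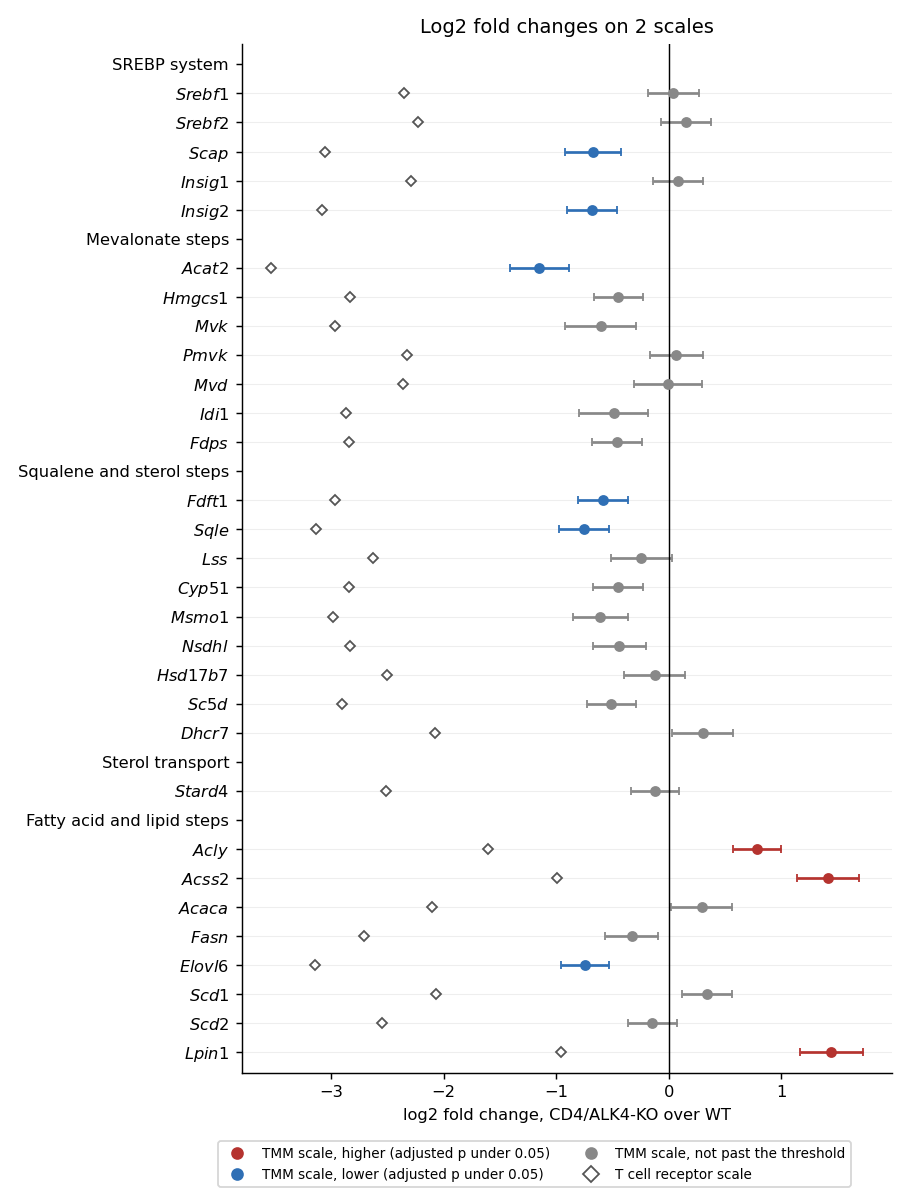
Filled points give the log2FC of CD4/ALK4-KO over WT on the TMM scale with its SE, in red or blue where the adjusted p was under 0.05, and open diamonds give the value on the T cell receptor scale. On the TMM scale most sterol genes lie left of 0 and *Acly*, *Acss2* and *Lpin1* lie right of it, whereas on the T cell receptor scale all 30 genes lie left of 0, the last 3 included.

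The fatty acid and lipid genes behaved differently from each other. Of 8 genes, 3 rose (37.5%, against 17.4% of all genes tested), 1 fell (12.5%, against 15.4%) and 4 did not pass the threshold. Their median log2FC was 0.32. It was 0.57 when replicate 1 of CD4/ALK4-KO was left out and 0.045 when its replicate 2 was left out. *Acss2* (chr2:155517948-155585724, plus strand), which makes acetyl-CoA from acetate, had 9.997 and 13.3 CPM in WT and 27.4 and 34.7 CPM in CD4/ALK4-KO, and its log2FC was 1.41 (SE 0.27, adjusted p = 0.00038) or 2.67-fold. *Acly* (chr11:100476353-100528000, minus strand), which makes it from citrate, had 151 and 143 CPM in WT and 243 and 264 CPM in CD4/ALK4-KO, and its log2FC was 0.79 (SE 0.21, adjusted p = 0.0072) or 1.72-fold. Both libraries labelled CD4/ALK4-KO were above both labelled WT for each gene. Both directions turned on the T cell receptor scale, with a log2FC of -0.99 for *Acss2* and -1.60 for *Acly*. *Acss2* was called higher with each of the 4 libraries left out in turn, and *Acly* was not called without WT replicate 1 or without WT replicate 2, at 0.82 and 0.75. Other genes share 9.12% of the exon bases of *Acss2*.

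The enzymes that build and modify the chain showed no common direction. *Acaca*, the acetyl-CoA carboxylase gene, had 19.1 and 18.9 CPM in WT and 19.0 and 27.5 CPM in CD4/ALK4-KO (log2FC 0.29, adjusted p = 0.44). *Fasn*, the fatty acid synthase gene, had 70.2 and 53.0 CPM in WT and 41.0 and 56.9 CPM in CD4/ALK4-KO (-0.33, adjusted p = 0.29). Both overlapped between the genotypes. *Elovl6* (chr3:129532355-129638495, plus strand), which lengthens saturated chains such as palmitate, had 91.3 and 92.3 CPM in WT and 56.0 and 53.5 CPM in CD4/ALK4-KO. Its replicates were close together, and its log2FC of -0.75 (SE 0.21, adjusted p = 0.0094) stayed between -0.75 and -0.72 in the fits that each lacked a library, although it was not called without either WT library.

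The desaturases *Scd1* and *Scd2*, neighbors on chromosome 19 that introduce the double bond of oleate, did not pass the threshold. *Scd2* had 221 and 243 CPM in WT and 213 and 207 CPM in CD4/ALK4-KO (log2FC -0.15, adjusted p = 0.65), and *Scd1* had 66.6 and 80.9 CPM in WT and 78.8 and 108 CPM in CD4/ALK4-KO (0.34, adjusted p = 0.26). *Scd2* had more counts than *Scd1* in every library, also per kilobase of exon. There were 0.301 and 0.333 counts of *Scd1* for each count of *Scd2* in WT and 0.370 and 0.523 in CD4/ALK4-KO. *Lpin1* (chr12:16535669-16610966, minus strand), a phosphatidate phosphatase and coregulator of lipid genes, had 8.76 and 10.1 CPM in WT and 21.6 and 29.8 CPM in CD4/ALK4-KO. It had the highest log2FC of the 30 genes on the TMM scale, 1.44 (SE 0.28, adjusted p = 0.00042) or 2.72-fold, was called with each library left out in turn, and was at -0.96 on the T cell receptor scale.

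The 8 fatty acid and lipid genes summed to 638 and 655 CPM in WT and 700.1 and 782 CPM in CD4/ALK4-KO on the TMM scale. The mean of *Acly* alone went from 147 CPM in WT to 254 CPM in CD4/ALK4-KO, a larger rise than that of the sum. The rise of the sum therefore does not describe the 8 genes together. The balance of both branches was read from ratios of counts within a library, which no scaling changes. There were 0.646 and 0.777 counts of the 8 fatty acid and lipid genes for each count of the 16 mevalonate and sterol genes in WT, and 0.955 and 1.32 in CD4/ALK4-KO. The genotypes did not overlap, and no test was applied. The composition of the fatty acid branch differed as well. *Acly* made up 23.7% and 21.9% of the summed CPM of the 8 genes in WT and 34.8% and 33.8% in CD4/ALK4-KO, while *Elovl6* made up 14.3% and 14.1% against 7.99% and 6.85%. Set against the 7 T cell receptor complex genes, the 30 genes had 6.59 and 6.95 counts for each count of these 7 in WT and 1.17 and 1.20 in CD4/ALK4-KO. The log2 change of this ratio was -2.51, beside a median shift of -2.39 for all genes on the T cell receptor scale. The drop is therefore not particular to the 30 genes.

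**Figure D3:**
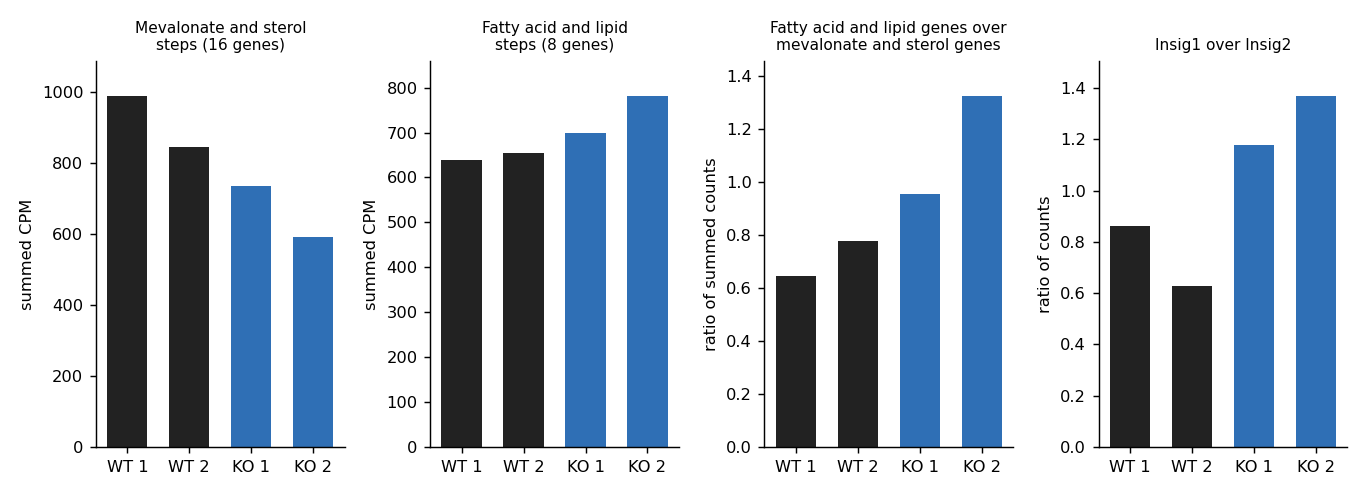
Bars give 1 value per library, from left to right the summed CPM of the 16 mevalonate and sterol genes, the summed CPM of the 8 fatty acid and lipid genes, the ratio of the counts of the second group to the first, and the ratio of *Insig1* to *Insig2* counts. Both ratios are higher in both CD4/ALK4-KO libraries (KO) than in either WT library, and they do not depend on the scaling of the libraries.

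Per kilobase of exon, which allows levels to be compared between genes, the order of the genes with the highest means differed between the genotypes, and no scaling changes an order within a library. In WT the levels were 42.5 CPM per kilobase for *Scd2*, 37.2 for *Hmgcs1*, 31.6 for *Cyp51* and 27.9 for *Acly*. In CD4/ALK4-KO *Acly* was first with 48.1 CPM per kilobase, followed by 38.4 for *Scd2*, 27.3 for *Hmgcs1* and 23.1 for *Cyp51*. *Insig2* (23.0 CPM per kilobase) was above *Insig1* (19.2) in WT and below it (14.3 and 20.3) in CD4/ALK4-KO. The lowest level in WT was that of *Lpin1* at 0.977 CPM per kilobase, and in CD4/ALK4-KO that of *Acaca* at 1.36.

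A further 76 genes of sterol and lipid metabolism outside the list were examined, of which 74 passed the filter. On the TMM scale 9 were higher and 10 lower (12.2% and 13.5%, against 17.4% and 15.4% of all genes tested), with a median log2FC of -0.052. On the T cell receptor scale 0 were higher and 73 lower, with a median of -2.44. Of 19 genes of sterol sensing, uptake, efflux and storage, 4 were higher (21.1%, near the 17.4% of all genes) and 2 lower on the TMM scale. *Abcg1*, which exports sterols from the cell, had 14.7 and 18.7 CPM in WT and 47.7 and 68.6 CPM in CD4/ALK4-KO, and its log2FC was 1.80 (SE 0.25, adjusted p = 9.0e-06). *Abca1*, the exporter of cholesterol to apolipoproteins, had 76.0 and 89.1 CPM in WT and 170 and 173 CPM in CD4/ALK4-KO, with 1.06 (SE 0.21, adjusted p = 0.00057). *Mylip*, whose product marks lipoprotein receptors for degradation, had 15.8 and 16.2 CPM against 36.1 and 48.8 CPM, with 1.41 (SE 0.25, adjusted p = 0.00015). On the T cell receptor scale *Abcg1*, *Mylip* and *Abca1* were at -0.61, -0.98 and -1.35, the opposite direction. *Trim21*, a ubiquitin ligase, had 39.5 and 41.4 CPM in WT and 95.1 and 63.3 CPM in CD4/ALK4-KO. It rose with a log2FC of 0.97 (adjusted p = 0.0027) and was at -1.43 on the T cell receptor scale. Without WT replicate 1, *Abca1* (0.95) and *Trim21* (0.94) were not called.

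The 4 largest falls among the further genes were those of *Hacd1*, *Tmem97*, *Acsl3* and *Vldlr*. *Hacd1*, a dehydratase of chain elongation, had 15.8 and 11.8 CPM in WT and 4.03 and 4.78 CPM in CD4/ALK4-KO, and its log2FC was -1.64 (SE 0.33, adjusted p = 0.00053). *Tmem97*, a sterol-responsive gene of the endoplasmic reticulum, had 35.9 and 35.1 CPM in WT and 19.4 and 14.7 CPM in CD4/ALK4-KO, with -1.06 (SE 0.25, adjusted p = 0.0026). The acyl-CoA synthetase gene *Acsl3* was at -0.91 (adjusted p = 0.0038), and the lipoprotein receptor gene *Vldlr*, a protein marked for degradation by the product of *Mylip*, was at -0.91 (adjusted p = 0.017). The citrate carrier gene *Slc25a1*, named after its value was seen, was also lower, with a log2FC of -0.77 (adjusted p = 0.026). *Acsl3* was not called without either WT library, nor *Vldlr* without WT replicate 1 (-0.73). Among 14 further genes of sterol and isoprenoid synthesis, none was lower at an adjusted p under 0.05, against 15.4% of all genes tested. The median of the 14 was -0.22, and 1 was higher (7.14%, against 17.4% of all genes tested). That gene was *Lbr* (154 and 159 against 340 and 240 CPM, log2FC 0.89, adjusted p = 0.0044), which turned to -1.504 on the T cell receptor scale. *Lbr* encodes a lamin receptor with sterol reductase activity, and it is named here after its value was seen.

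**Figure D4:**
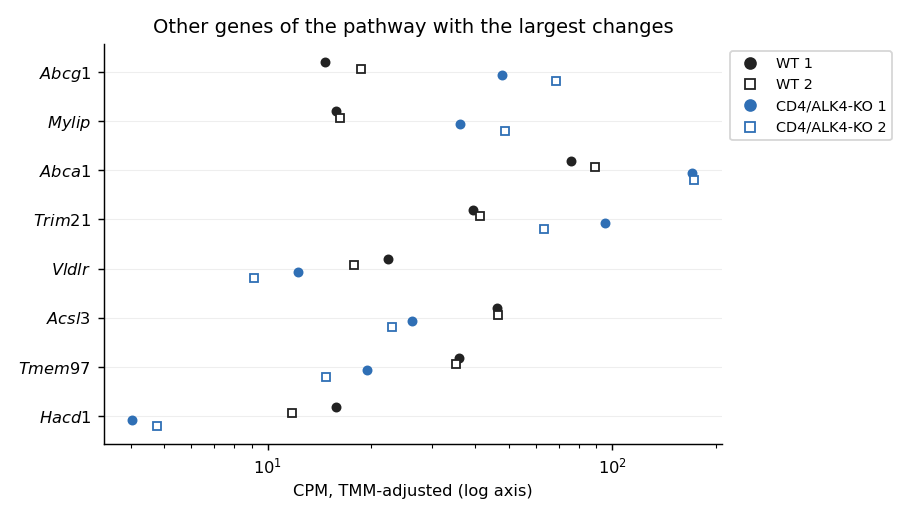
Each point is the CPM of a gene in 1 library (log axis) for the 4 largest rises and the 4 largest falls among further genes of sterol and lipid metabolism on the TMM scale, with symbols as in the plot of the 30 genes. The WT and CD4/ALK4-KO libraries do not overlap for any of the 8 genes, which follows largely from picking them by their change and adjusted p. Of all genes tested, 66.7% showed no overlap. The 4 that rose here were below 0 on the T cell receptor scale.

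Markers of other cells and of dividing cells also differed between the genotypes on the TMM scale. Over all genes tested, 17.4% were called higher and 15.4% lower. Of 14 proliferation genes, 7 were lower (50%) and none higher. Their sums were 2166 and 2192 CPM in WT and 1511 and 1244 CPM in CD4/ALK4-KO. The lowest library was CD4/ALK4-KO replicate 2, as for the sum of the mevalonate and sterol genes. It was also the lowest for the fibroblast, alveolar macrophage and lung epithelial sums and for the sum of all genes tested. Of 8 fibroblast genes, 5 were lower, with sums of 6888 and 7431 CPM in WT and 4826 and 4016 CPM in CD4/ALK4-KO. Alveolar type 2 and other lung epithelial cells had 3 genes lower (*Sftpc*, *Sftpa1* and *Scgb1a1*) and 3 higher (*Epcam*, *Cdh1* and *Abca3*) among 9 tested. The sums were 597 and 606 CPM in WT and 463 and 339 CPM in CD4/ALK4-KO. Most of each sum was *Scgb1a1*, with a mean of 426 CPM in WT and 257 CPM in CD4/ALK4-KO. Alveolar macrophage genes had 1 lower (*Chil3*) and 1 higher (*Siglecf*) among 8, with sums of 698 and 849 CPM in WT and 525 and 428 CPM in CD4/ALK4-KO. Most of each of these sums was *Chil3*, with a mean of 628 CPM in WT and 353 CPM in CD4/ALK4-KO. All 7 B cell genes were higher, with sums of 69.0 and 58.1 CPM in WT and 193 and 394 CPM in CD4/ALK4-KO. Dendritic cell genes had 4 higher and 1 lower among 7, with sums of 100.4 and 116 CPM in WT against 208 and 192 CPM. Neutrophil genes had 3 higher among 8, with overlapping sums from 979 to 1594 CPM. Endothelial genes had 1 higher and 1 lower among 7, with sums of 57.4 and 73.8 CPM in WT against 127 and 140 CPM. The higher gene was *Pecam1*, with a mean of 32.6 CPM in WT and 107 CPM in CD4/ALK4-KO, and the lower gene was *Cldn5*. The median log2FC of the 7 endothelial genes was -0.54, so the rise of their sum was not shared by the list. No marker was at 0 in all 4 libraries. The part of these cells in the values of the synthesis genes was not tested.

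**Figure D5:**
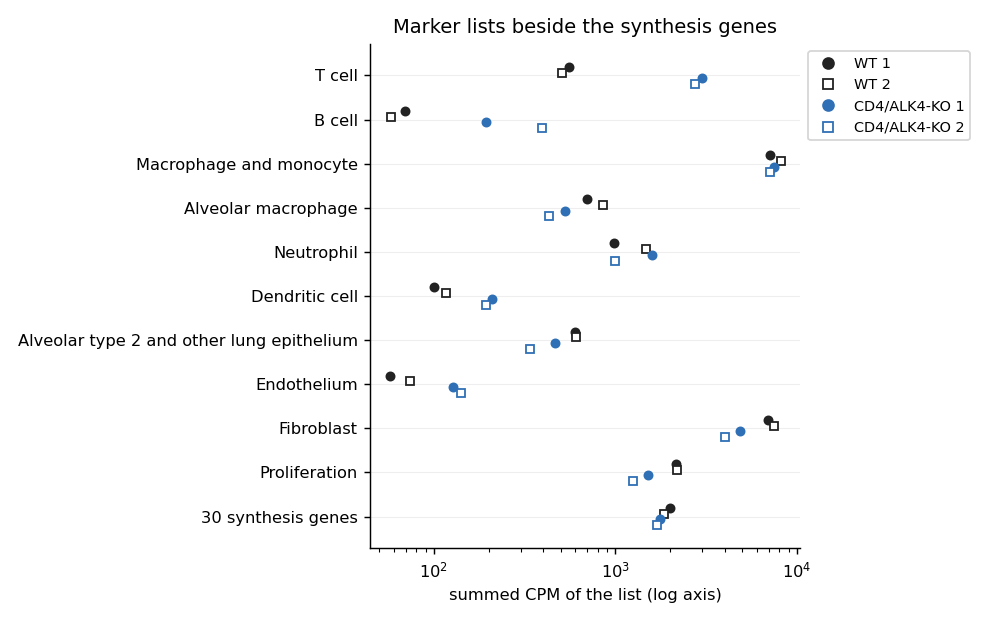
Each point is the summed CPM of a list of marker genes in 1 library (log axis), with the sum of the 30 synthesis genes in the last row. On this TMM scale the T cell and B cell lists are higher and the fibroblast and proliferation lists lower in both CD4/ALK4-KO libraries, while the 30 synthesis genes sum to 1687 to 2006 CPM.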

How the data were processed

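The authors aligned 75 bp single-end reads of TruSeq libraries to mm10 with HISAT2 and counted them with HTSeq in its intersection-nonempty mode. The deposited values were raw counts for each symbol, not normalized, and tool versions, annotation and strand option were not given in the sources used here. Replicates differed by more than sampling noise (chi-square per degree of freedom 16.0 for WT and 28.7 for CD4/ALK4-KO).

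Counts were filtered with filterByExpr (13919 genes), normalized with TMM and tested with the robust quasi-likelihood test of edgeR 4.0.16 in R 4.3.3, with genotype as the only term and Benjamini-Hochberg adjustment over all genes. SE was the size of the log2 fold change over the root of the F statistic. CPM used TMM-adjusted library sizes. On counts simulated from these libraries, the test recovered 90.0% of 100 genes set to change by 2 log2 units. It recovered 49.0% of 98 set to change by 1, and it called 19 unchanged genes, among 13731 genes. Far fewer genes were set to change there than the 2422 higher and 2140 lower called in the data. These shares therefore do not give the share recovered in the data. Locations and exon lengths are from GENCODE M21 (GRCm38), which matched 24321 symbols, and promoters are from RefSeq (24 of 30 genes matched). The genes and lists were chosen with earlier results of these data known. All 30 genes are named, and of 76 further genes the 4 largest rises and falls with an adjusted p under 0.05 and a mean of at least 100 counts. The alternatives were other scalings (DESeq2 1.42.0 size factors, upper quartile, T cell receptor complex genes), other filters, a replicate block, the DESeq2 Wald test, the likelihood ratio test, removal of 106 ribosomal, mitochondrial, immunoglobulin and haemoglobin genes, and each library left out.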

Additional observations from a re-analysis of the deposited data

How the results depend on the processing

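The 3 genes called higher and 6 called lower stayed within 1.5 times these counts with DESeq2 size factors, upper quartile scaling, both other filters, the likelihood ratio test, the DESeq2 Wald test (3 and 4) and the removal of abundant gene families. With T cell receptor complex scaling, 0 were higher and 30 lower, with a median of -2.67. That scale called 25 genes higher and 13024 lower of 13919, against 2422 and 2140 on the TMM scale. With a library left out in turn, the number lower ran from 0 to 11, the number higher from 2 to 4 and the median from -0.42 to -0.19. In these fits 1 genotype has a lone library that is assumed to vary like the others. The number of calls over all genes also moved with the library dropped, so these ranges are not particular to the 30 genes. Depth limits the genes with few counts most, and among the 30 genes the SE was highest for *Mvk* at 0.32.

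The replicate numbers are shared by the genotypes, but nothing says that they pair the animals, and the deviations of same-numbered libraries correlated at -0.263. With the replicate block 2 genes were higher and 2 lower, and *Acly*, *Elovl6*, *Insig2*, *Scap*, *Fdft1* and, among the further genes, *Vldlr* were not called, and over all genes 1768 and 1444 were called. With crossed pairing, added after the data were seen, 10 were lower, and 3118 and 3037 were called over all genes.

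Directions that turned were those of genes not called, apart from the T cell receptor scale. There *Srebf1* was at -2.36, *Srebf2* at -2.23, *Insig1* at -2.29, *Pmvk* at -2.33, *Dhcr7* at -2.08, *Acaca* at -2.10, *Scd1* at -2.06, *Acly* at -1.60, *Acss2* at -0.99, *Lpin1* at -0.96, *Abcg1* at -0.61, *Mylip* at -0.98, *Abca1* at -1.35 and *Trim21* at -1.43. *Srebf1* was at -0.028 with upper quartile scaling. *Mvd* was at 0.0070 with DESeq2 size factors, 0.0018 with DESeq2, 0.046 with the replicate block and 0.040 with crossed pairing. With a library left out in turn, the values ran from -0.10 to 0.19 for *Srebf1*, -0.033 to 0.36 for *Srebf2*, -0.097 to 0.29 for *Insig1*, -0.36 to 0.47 for *Mvd*, -0.64 to 0.091 for *Lss*, -0.54 to 0.21 for *Hsd17b7*, -0.26 to 0.027 for *Stard4* and -0.0037 to 0.56 for *Acaca*. The T cell receptor scale shifted the log2FC of all genes by a median of -2.39. A gene with a smaller rise on the TMM scale therefore turned there by arithmetic. The cause of the other changes was not tested.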
